A study of Homo sapiens with 10 samples.

Results

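Interferon-response genes are the genes that cells switch on when interferon signals through its receptors, and 45 of them were followed here in RD cells. They were chosen by symbol, as a list of genes known for this response, but with earlier results of these data known. Shares of this list set against all genes are therefore descriptions. All 45 were found among the 23228 genes counted in the series. RD is an established human rhabdomyosarcoma line, a muscle-lineage tumour line known to carry a mutated NRAS gene. Gene expression was measured by RNA sequencing in 10 libraries, 2 for each of 5 groups. The siRNA groups were NRAS siRNA 1, NRAS siRNA 2 and a nonspecific siRNA, labelled as a scrambled-siRNA control, each transfected at 10 nM with Lipofectamine RNAi MAX and collected at 48 h. The drug groups were the ERK inhibitor SCH772984 at 300 nM and its vehicle DMSO, both collected at 24 h without a described transfection. All groups are of 1 cell line, and whether the replicates of a group came from separate cultures is not in the labels. The spread that the p-values rest on may thus be technical.

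Type I interferons bind the receptor IFNAR, whose kinases activate the factor ISGF3, which holds STAT2 and IRF9. ISGF3 binds interferon-stimulated response elements (ISRE) in promoters, while gamma-activated sites (GAS) serve the response to interferon gamma. Double-stranded RNA can be sensed by RIG-I (DDX58), MDA5 (IFIH1), TLR3 and the kinase PKR (EIF2AK2). A transfected siRNA is a short double-stranded RNA, and whether any of these sensed it was not tested. The products of the response block viral entry, translation and replication.

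RefSeq promoters of build GRCh38.p14, from 250 bases before to 50 bases after the start of a gene, were matched for 37 of the 45 genes. No promoter was matched for IRF7, OAS2, OASL, IFIT2, IFITM2, USP18, MX2 or TRIM22. The ISRE core GAAANNGAAA, or TTTCNNTTTC on the other strand, was in 22 of the 37 promoters (59.5%), against 996 of all 27305 promoters (3.65%). The GAS core TTCNNNGAA, which is its own reverse complement, was in 10 of the 37 (27.0%), against 2152 of all promoters (7.88%). The windows below are shown because these genes carry the results that follow: IFI44L, IFI6 and PARP14 rose with the ERK inhibitor, HERC5 and IFIT3 fell with it, ISG15 fell with both NRAS siRNAs, and IFI44 lies beside IFI44L on chromosome 1 and did not pass the test in any comparison. Each is written 5′ to 3′ on the strand of the gene, with the ISRE cores inside the window in capitals. The promoters of IFI44L and IFIT3 held 2 cores each and those of HERC5 and IFI6 3 each, so some lie outside the windows. Windows were made only for promoters with a core.
IFI44L: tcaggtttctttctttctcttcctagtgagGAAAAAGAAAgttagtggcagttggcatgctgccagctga
IFI44: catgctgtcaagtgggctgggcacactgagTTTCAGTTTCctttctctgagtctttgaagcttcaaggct
IFI6: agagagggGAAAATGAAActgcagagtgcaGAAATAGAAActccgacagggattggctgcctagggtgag
PARP14: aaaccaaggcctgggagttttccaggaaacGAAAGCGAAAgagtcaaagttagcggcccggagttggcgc
ISG15: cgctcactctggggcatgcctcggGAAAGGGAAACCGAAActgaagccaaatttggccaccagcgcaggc
HERC5: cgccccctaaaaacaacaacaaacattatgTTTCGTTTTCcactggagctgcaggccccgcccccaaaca
IFIT3: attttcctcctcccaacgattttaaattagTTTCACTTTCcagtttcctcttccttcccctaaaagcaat
The windows of IFI44L (chr1:78620345-78620414), IFI44 (chr1:78649741-78649810), PARP14 (chr3:122680780-122680849), ISG15 (chr1:1013360-1013429), HERC5 (chr4:88457015-88457084) and IFIT3 (chr10:89327845-89327914) are on the plus strand, and that of IFI6 (chr1:27672246-27672315) is on the minus strand. The core shown for IFI44L lies at positions -73 to -64 from the start of the gene and that for IFI44 at -18 to -9. Among genes that rose with the ERK inhibitor 4 of 8 promoters held an ISRE core, among those that fell 3 of 3, and among the other tested genes 15 of 24. A match is only a run of letters, and no binding was measured.

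Depth was 23224063 to 30768970 gene counts per library. Levels are given in CPM, the share of a library's scaled total count on a common scale, not divided by gene length. Treatment effects are therefore read within a gene only. Ranks, bands and sums of CPM across genes also depend on gene length and are rough descriptions. The targeted gene NRAS checked the labels: it had 52.4 and 52.1 CPM with NRAS siRNA 1, 51.0 and 48.0 CPM with NRAS siRNA 2, and 220 and 272 CPM with the nonspecific siRNA. Of 8 muscle and rhabdomyosarcoma markers, DES, PAX3, FGFR4 and CDH15 passed the filter on low counts. MYOD1, a defining factor of the muscle lineage, had only 25 counts over all 10 libraries, MYOG 10, PAX7 34 and MYF5 0, so the muscle label rests on the first 4, and CDH15 was under 1 CPM outside the ERK inhibitor libraries. The 8 muscle markers summed to 50.3 to 72.2 CPM over the 10 libraries and 4 epithelial markers to 117 to 365 CPM, nearly all of it KRT18; the identity of the line was not tested. Of 8 leukocyte markers 2 passed the filter (CD14 and CD68), and the defining leukocyte marker PTPRC had 23 counts over all libraries. The summed level of the 8 leukocyte markers was 4.68 to 6.27 CPM with NRAS siRNA 1, 4.22 to 5.37 with NRAS siRNA 2, 7.31 to 8.44 with the nonspecific siRNA, 4.23 to 4.37 with the ERK inhibitor and 6.29 to 6.98 with DMSO. In edgeR's test CD14 passed, lower in the mean of both NRAS siRNAs (log2 fold change -1.0). With the ERK inhibitor CD68 (-0.94) and the endothelial KDR (-3.54) passed as lower and CDH15 (3.54) as higher. KDR had 0 and 2 counts with the ERK inhibitor and 10 and 13 with DMSO. The endothelial VWF (2.04) had 20 and 23 counts with the ERK inhibitor and 7 and 2 with DMSO. It passed the filter on low counts only through the ERK inhibitor libraries, so its values are a description. The part of these markers in the results was not tested.

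RD cells transcribed most interferon-response genes without added interferon. Averaged over the 10 libraries, 4 genes were at 100 CPM or more, 26 between 10 and 100 CPM, 9 between 1 and 10 CPM and 6 under 1 CPM. The 4 were IFITM3, at 152 to 245 CPM, IFITM2, at 111 to 235 CPM, TRIM25, at 105 to 143 CPM, and SAMD9, at 51.7 to 156 CPM. IFITM2 and IFITM3 encode membrane proteins that hinder virus fusion, TRIM25 is a ubiquitin ligase that activates RIG-I, and SAMD9 is an antiviral effector. OAS1, which makes the activator of RNase L, was near 0 with 59 counts over all libraries (0.0341 to 0.349 CPM), and XAF1, a pro-apoptotic gene, had 15 counts. These 2 genes did not pass the filter on low counts and were not tested, which left 43 tested genes. In OAS1 the ratio of summed counts, ERK inhibitor over DMSO, was 0.883 with a 95% interval of 0.264 to 2.95, which covers counting error only.

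**Figure D1:**
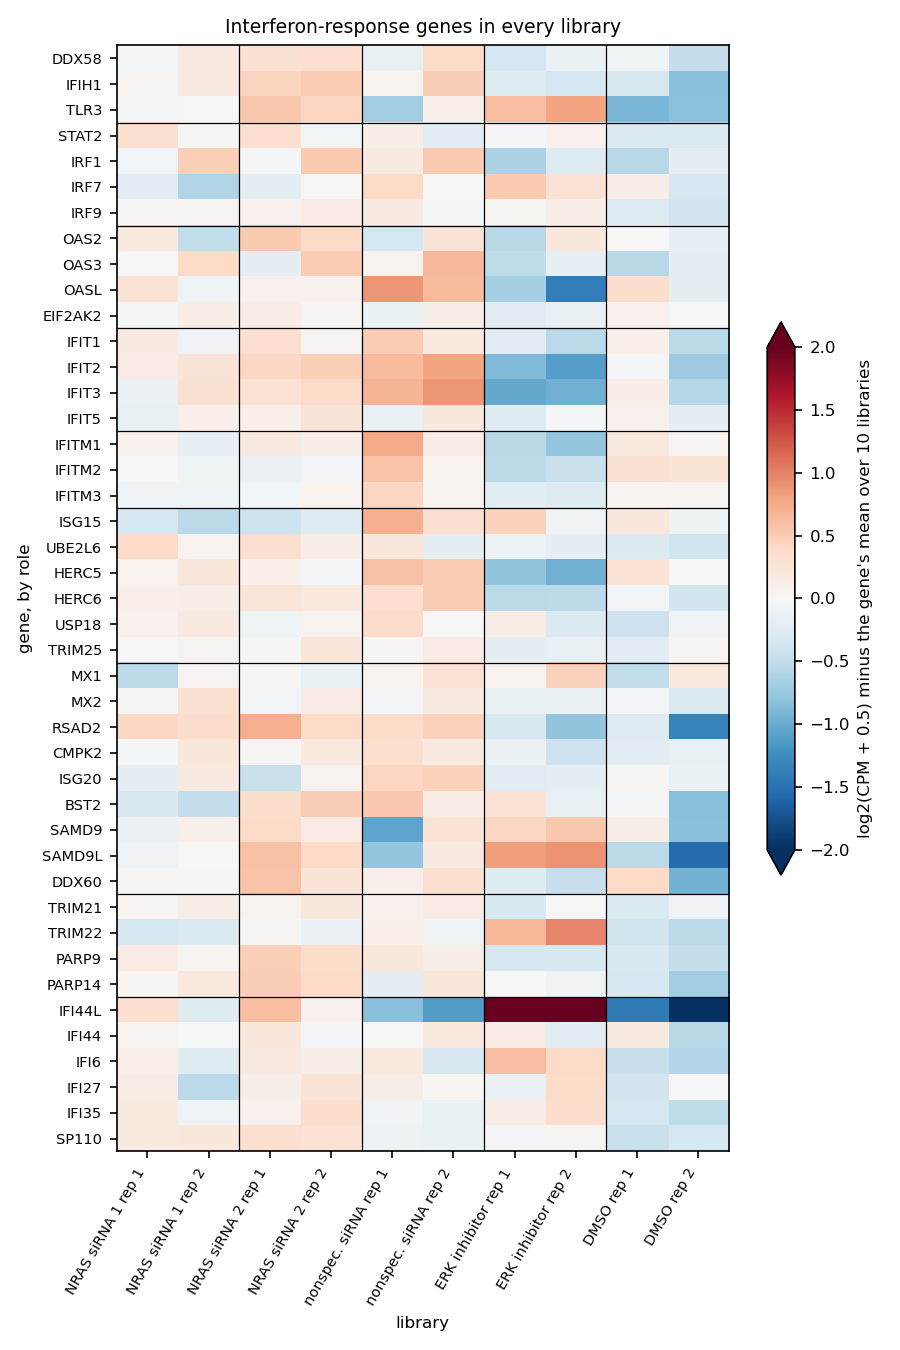
Level of the 43 tested interferon-response genes (rows, grouped by role) in each of the 10 libraries (columns), as log2(CPM + 0.5) minus the gene's mean over all libraries; red is above and blue below that mean. IFI44L stands out in both ERK inhibitor libraries (46.1 and 32.7 CPM) and DMSO replicate 2 is blue in most rows.

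No interferon ligand was expressed at a testable level. Of 21 ligand genes, 16 had no count in any library, and the other 5 had 16 counts in all among 270602798: IL29 8, IFNE 4, IFNG 2, IFNB1 1 and IFNK 1. At this depth, where 3 counts correspond to 0.0975 to 0.129 CPM, ligand transcripts were not detectable above the floor in any group. All 6 receptor genes were tested. IFNAR1, a chain of the type I receptor, had 75.2 and 90.8 CPM with the ERK inhibitor and 91.9 and 89.2 CPM with DMSO, and IFNAR2, the other chain, 18.3 and 20.3 CPM against 25.1 and 24.1 CPM.

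The ERK inhibitor changed 15 of the 43 tested genes, in both directions. IFI44L, TRIM22, TLR3, SAMD9L, IFI6, IFI35, PARP14, IRF9 and SP110 were higher with the ERK inhibitor than with DMSO. OASL, HERC5, IFIT3, IFITM1, IFITM2 and IFIT2 were lower. TRIM22 passed the filter on low counts only through the ERK inhibitor libraries, so its place among the 15 supports nothing. The shares given next for the 15 and for the 9 higher genes count it. The 15 are 34.9% of the genes tested, against 28.0% of all 14761 tested genes. The 9 higher genes are 20.9%, against 13.2% of all genes, and the 6 lower genes 14%, against 14.8%; the median log2 fold change was 0.07, against 0.00 over all genes. Both inhibitor libraries were above both DMSO libraries in 13 genes (30.2%, against 32.8% of all genes) and below them in 10 (23.3%, against 33.9%). Calls are from edgeR's quasi-likelihood test at a Benjamini-Hochberg adjusted p under 0.05 over all genes, and log2 fold changes are followed by their standard errors. In cultures measured in bulk, fewer cells in a state and less RNA per cell cannot be told apart.

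IFI44L, an interferon-induced gene with antiviral activity, had 46.1 and 32.7 CPM with the ERK inhibitor, against 2.51 and 1.48 CPM with DMSO. The means were 39.4 ± 9.50 CPM with the ERK inhibitor and 1.99 ± 0.727 CPM with DMSO (SD, n = 2 each). Both inhibitor libraries were above all 8 others, and the log2 fold change was 4.32 ± 0.33, a 19.9-fold higher level (edgeR adjusted p = 2.18e-05). Its neighbour IFI44, a related gene, had 104 and 79.9 CPM against 105 and 62.6 CPM with DMSO, overlapping groups, and a log2 fold change of 0.13 ± 0.21 (edgeR adjusted p = 0.678). The 2 genes of this pair therefore gave very different values under the same drug.

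Other genes of the IFI group and SP110 rose less. IFI6, a mitochondrial and endoplasmic reticulum protein, had 31.6 and 26.6 CPM with the ERK inhibitor and 14.7 and 13.4 CPM with DMSO. That is a log2 fold change of 1.05 ± 0.19 (edgeR adjusted p = 0.00298). The groups did not overlap, and the same held for IFI35 and SP110. IFI35, a partner of NMI, had 10.4 and 12 CPM against 7.17 and 6.41 CPM with DMSO, a log2 fold change of 0.72 ± 0.17 (edgeR adjusted p = 0.0109). SP110, a nuclear body protein, had 15.6 and 16.2 CPM against 11.6 and 12.4 CPM with DMSO, a log2 fold change of 0.40 ± 0.11 (edgeR adjusted p = 0.0266). IFI27, at 0.723 and 1.23 CPM against 0.528 and 0.835 CPM with DMSO, overlapped and did not pass the test.

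Among the sensors, TLR3, the endosomal receptor for double-stranded RNA, rose. It had 3.23 and 3.72 CPM with the ERK inhibitor, against 0.792 and 0.873 CPM with DMSO, a log2 fold change of 2.05 ± 0.32 (edgeR adjusted p = 0.00148). The inhibitor libraries were the highest of all 10. The cytosolic sensors did not pass the test: DDX58 had 14.5 and 17.0 CPM against 17.6 and 13.4 CPM with DMSO, and IFIH1 had 11.9 and 11.2 CPM against 11.2 and 7.70 CPM.

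Of the signal transducers, IRF9, the DNA-binding subunit of ISGF3, had 21.0 and 22.3 CPM with the ERK inhibitor and 16.9 and 15.5 CPM with DMSO. The groups were apart and the log2 fold change was 0.42 ± 0.12 (edgeR adjusted p = 0.0299). In the GENCODE 29 annotation 43.6% of the 50-base words of IRF9 were shared with other genes, mainly AL136295.5, which overlaps it on the same strand, so its count is uncertain. STAT2, also a subunit of ISGF3, had 43.4 and 46.8 CPM against 35.7 and 36.0 CPM with DMSO and did not pass the test (edgeR adjusted p = 0.145). IRF7, which drives interferon alpha genes, and IRF1, a factor induced mainly by interferon gamma, did not pass it either, at log2 fold changes of 0.54 ± 0.22 and -0.08 ± 0.25.

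SAMD9L, a paralogue of SAMD9 that restricts growth and viral replication, had 42.7 and 45 CPM with the ERK inhibitor, against 16.3 and 7.82 CPM with DMSO. The groups did not overlap, and the log2 fold change was 1.87 ± 0.34 (edgeR adjusted p = 0.00301). SAMD9 had 144 and 156 CPM against 116 and 60.4 CPM with DMSO, also without overlap, but its log2 fold change of 0.77 ± 0.37 did not pass the test (edgeR adjusted p = 0.153). Both genes had a wide gap between the DMSO replicates. The other 7 effectors, among them the GTPases MX1 and MX2, RSAD2 (viperin) and BST2 (tetherin), did not pass the test. The example with the highest level after SAMD9 and SAMD9L was DDX60, a helicase, at 12.1 and 10.2 CPM against 18.9 and 7.21 CPM with DMSO.

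TRIM22, a ubiquitin ligase with antiviral activity, was near the floor outside the ERK inhibitor libraries, which alone had over 10 counts of it, and its values are a description. It had 0.723 and 1.02 CPM with the ERK inhibitor, against 0.0880 and 0.0379 CPM with DMSO, which are 49 and 3 counts summed over the 2 libraries of each group. The ratio of these counts was 14.4, with a 95% counting interval of 4.65 to 72.3. PARP14, a mono-ADP-ribosyltransferase, had 55.5 and 53.2 CPM against 43.6 and 34.1 CPM with DMSO, a log2 fold change of 0.48 ± 0.15 (edgeR adjusted p = 0.0399). The groups did not overlap in either gene. PARP9, its family member, had 20.2 and 20.3 CPM against 20.6 and 18.1 CPM with DMSO, and TRIM21, an antibody receptor in the cytosol, 13.3 and 16.4 CPM against 13.4 and 15.8 CPM; neither passed the test.

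The genes that fell belong to 4 of the 9 role groups. HERC5, the main ligase that attaches ISG15 to proteins, had 27.6 and 24.4 CPM with the ERK inhibitor, against 58.8 and 48.0 CPM with DMSO. The log2 fold change was -1.04 ± 0.13, a 2.06-fold lower level, and the inhibitor libraries were the lowest of all 10 (edgeR adjusted p = 0.00033). ISG15 itself, the ubiquitin-like protein that HERC5 attaches, had 74.9 and 51.7 CPM against 63.0 and 50.5 CPM with DMSO, overlapping groups that did not pass the test (edgeR adjusted p = 0.577). The other genes of this pathway, UBE2L6 (the conjugating enzyme), USP18 (which removes ISG15 and inhibits the receptor), TRIM25 and HERC6 (an ISG15 ligase in mouse), had log2 fold changes of -0.34 to 0.20 and did not pass it.

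In the IFIT family, whose proteins bind viral RNA and block its translation, IFIT3 and IFIT2 fell. IFIT3 had 13.2 and 13.8 CPM with the ERK inhibitor and 29.9 and 18.2 CPM with DMSO, a log2 fold change of -0.83 ± 0.22 (edgeR adjusted p = 0.0204). IFIT2 had 17.3 and 14.8 CPM against 31.7 and 19.4 CPM with DMSO, a log2 fold change of -0.67 ± 0.20 (edgeR adjusted p = 0.03). In both genes the groups were apart, but the DMSO replicates differed widely. Without DMSO replicate 1, the higher one, the log2 fold changes were -0.43 for IFIT3 and -0.27 for IFIT2, and both calls were lost (edgeR adjusted p = 0.139 and 0.205). IFIT5 and IFIT1, at 35.7 and 41.2 CPM and at 23.7 and 19.1 CPM with the ERK inhibitor against 44.8 and 37.5 CPM and 29.9 and 19.1 CPM with DMSO, did not pass the test.

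In the IFITM family, IFITM1 had 32.0 and 27.5 CPM with the ERK inhibitor and 54.1 and 48.4 CPM with DMSO, a log2 fold change of -0.79 ± 0.18 (edgeR adjusted p = 0.0112). IFITM2 had 111 and 117 CPM against 197 and 192 CPM with DMSO, a log2 fold change of -0.77 ± 0.14 (edgeR adjusted p = 0.00265). The inhibitor libraries were the lowest of all 10 in both genes. IFITM3 had 157 and 152 CPM against 190 and 189 CPM with DMSO, without overlap, and did not pass the test (edgeR adjusted p = 0.0756). These 3 genes share sequence, with 32.0%, 34.1% and 17.4% of the 50-base words of IFITM1, IFITM2 and IFITM3 found in other genes, mostly each other, so the split of reads among them is uncertain.

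OASL, a relative of the oligoadenylate synthetases that lacks their enzyme activity and enhances RIG-I signalling, had 8.48 and 4.98 CPM with the ERK inhibitor and 17.6 and 12 CPM with DMSO. The groups were apart, with a log2 fold change of -1.14 ± 0.26 (edgeR adjusted p = 0.0101). The kinase EIF2AK2, at 41.9 and 44.2 CPM against 52.1 and 49.6 CPM with DMSO, and the synthetase OAS3, at 13.7 and 17.5 CPM against 13.2 and 17.1 CPM, did not pass the test. OAS2, at 0.114 to 0.546 CPM in these 4 libraries, did not pass it either.

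Of the 15 genes, IFI44L, TLR3, SAMD9L, IFI6, HERC5 and IFITM2 passed the test under every alternative run. Without ERK inhibitor replicate 2 the count was 7, these genes and TRIM22.

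**Figure D2:**
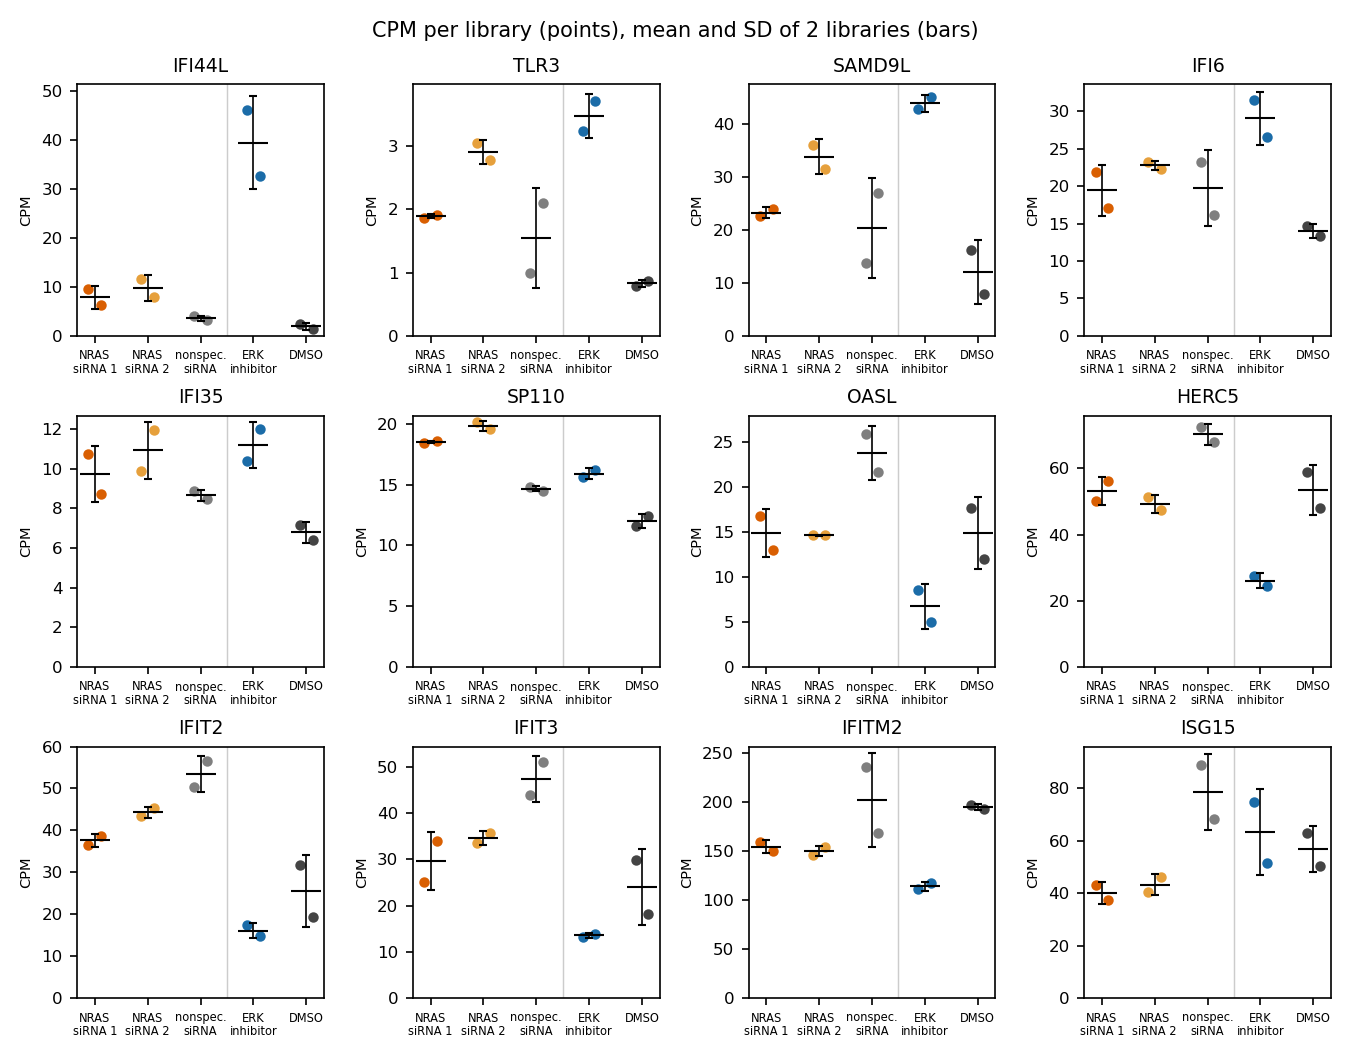
CPM of 12 interferon-response genes in every library: points are libraries, horizontal bars group means and error bars SD (n = 2 each), with the siRNA groups left of the drug groups. IFI44L was highest in both ERK inhibitor libraries, HERC5 was lowest in them, and ISG15 was lower in all 4 NRAS siRNA libraries (37.3 to 46.1 CPM) than with the nonspecific siRNA (68.2 and 88.9 CPM).

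Few of the interferon-response genes passed the test with the NRAS siRNAs. ISG15 fell with either NRAS siRNA, HERC5 fell and IFI44L and SP110 rose with NRAS siRNA 2, and the same 4 genes changed in the mean of both siRNAs. With NRAS siRNA 1 the count was 1 of 43 (2.33%), against 2.07% of all tested genes, with 0 higher (0.894% of all genes) and 1 lower (1.17% of all genes). With NRAS siRNA 2 it was 4 of 43 (9.30%), against 6.43% of all genes, with 2 higher (2.59% of all genes) and 2 lower (3.84% of all genes). In the mean of both it was again 4 of 43, against 7.95% of all genes, with 2 higher (2.97% of all genes) and 2 lower (4.99% of all genes). Both siRNAs were set against the same 2 nonspecific siRNA libraries, so their results are not independent.

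ISG15 had 43.1 and 37.3 CPM with NRAS siRNA 1, 40.5 and 46.1 CPM with NRAS siRNA 2, and 88.9 and 68.2 CPM with the nonspecific siRNA. All 4 NRAS siRNA libraries were below both controls, and below the 4 drug libraries too. The log2 fold change was -0.97 ± 0.19 with NRAS siRNA 1 (edgeR adjusted p = 0.0356) and -0.86 ± 0.19 with NRAS siRNA 2 (edgeR adjusted p = 0.0313). In the mean of both it was -0.91 ± 0.16, a 1.88-fold lower level (edgeR adjusted p = 0.0125). ISG15 overlaps the gene AL645608.3 on the other strand, and the strand setting of the counting is not given in the sources used here.

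HERC5 had 50.2 and 56.2 CPM with NRAS siRNA 1, 51.2 and 47.3 CPM with NRAS siRNA 2, and 72.6 and 68.0 CPM with the nonspecific siRNA. The groups did not overlap. The log2 fold change was -0.40 ± 0.12 with NRAS siRNA 1, which did not pass (edgeR adjusted p = 0.126), and -0.51 ± 0.12 with NRAS siRNA 2, which did (edgeR adjusted p = 0.0378). In the mean of both it was -0.46 ± 0.10 (edgeR adjusted p = 0.0289).

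IFI44L had 9.57 and 6.23 CPM with NRAS siRNA 1, 11.6 and 7.97 CPM with NRAS siRNA 2, and 3.97 and 3.18 CPM with the nonspecific siRNA. All 4 NRAS siRNA libraries were above both controls and below both ERK inhibitor libraries. The log2 fold change was 1.15 ± 0.31 with NRAS siRNA 1 (edgeR adjusted p = 0.0896, not passed) and 1.46 ± 0.31 with NRAS siRNA 2 (edgeR adjusted p = 0.0256). In the mean of both it was 1.30 ± 0.28, a 2.47-fold higher level (edgeR adjusted p = 0.0244).

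SP110 had 18.4 and 18.6 CPM with NRAS siRNA 1, 20.1 and 19.6 CPM with NRAS siRNA 2, and 14.8 and 14.5 CPM with the nonspecific siRNA, without overlap. The log2 fold change was 0.34 ± 0.11 with NRAS siRNA 1 (edgeR adjusted p = 0.159, not passed) and 0.44 ± 0.11 with NRAS siRNA 2 (edgeR adjusted p = 0.0486). In the mean of both it was 0.39 ± 0.10 (edgeR adjusted p = 0.0442). SP110 overlaps SP140 and AC009950.1 on the other strand.

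Several genes lay apart from the controls without passing the test. In the mean of both siRNAs the log2 fold change was -0.69 ± 0.21 for OASL, -0.57 ± 0.18 for IFIT3 and -0.41 ± 0.12 for IFITM2 (edgeR adjusted p = 0.0695, 0.079 and 0.0568). Every library of both NRAS siRNAs was below both nonspecific libraries in 11 of the 43 genes (25.6%, against 19.3% of all genes), namely IRF7, OASL, IFIT2, IFIT3, IFITM2, IFITM3, ISG15, HERC5, HERC6, MX1 and ISG20. Every library was above in 2 genes, IFI44L and SP110 (4.65%, against 16.2% of all genes). The highest-expressed genes outside these, TRIM25 and SAMD9, overlapped the controls. TRIM25 had 121 and 126 CPM with NRAS siRNA 1, 123 and 143 CPM with NRAS siRNA 2 and 123 and 135 CPM with the nonspecific siRNA.

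Without replicate 2 of the nonspecific siRNA the calls of HERC5, IFI44L and SP110 were lost, and those of ISG15 were not. All calls against the nonspecific siRNA depended on its replicate 1. Without it no interferon-response gene passed with NRAS siRNA 1, with NRAS siRNA 2 or in the mean of both, where 8 genes in each had an unadjusted p under 0.05; for ISG15 the mean log2 fold change was then -0.69 (edgeR adjusted p = 0.108). Leaving out NRAS siRNA 2 replicate 1 also left no call with NRAS siRNA 2, and leaving out either NRAS siRNA 1 library or DMSO replicate 2 left none with NRAS siRNA 1.

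The 2 NRAS siRNAs were compared directly, which removes the shared control. No interferon-response gene passed edgeR's test or DESeq2, against 0.427% of all genes in edgeR (0.230% higher and 0.196% lower), and 2 genes had an unadjusted p under 0.05 in edgeR, against 881 of all 14761 genes. These were BST2, which holds budding virus at the cell surface, and PARP9, with log2 fold changes of -1.08 ± 0.37 and -0.32 ± 0.11, NRAS siRNA 1 over NRAS siRNA 2 (edgeR adjusted p = 0.644 for both). BST2 had 1.13 and 0.937 CPM with NRAS siRNA 1 and 2.06 and 2.31 CPM with NRAS siRNA 2. PARP9 had 28.5 and 26.5 CPM with NRAS siRNA 1 and 35.7 and 33.1 CPM with NRAS siRNA 2. Both were lower in each NRAS siRNA 1 library than in either NRAS siRNA 2 library.

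Small differences between the siRNAs mostly had the same sign. The log2 fold change, NRAS siRNA 1 over NRAS siRNA 2, was above 0 in 9 of the 43 genes (20.9%), against 49.2% of all genes, and its median was -0.17. Both NRAS siRNA 1 libraries were below both NRAS siRNA 2 libraries in 20 genes (46.5%, against 19.0% of all genes) and above them in 1, USP18 (2.33%, against 17.8% of all genes). The 20 included the sensors DDX58, IFIH1 and TLR3. The RNA-sensing kinase EIF2AK2 was not among them, with overlapping levels of 48.4 and 53.9 CPM with NRAS siRNA 1 and 53.7 and 50.9 CPM with NRAS siRNA 2. DDX58 had 18.3 and 21.2 CPM with NRAS siRNA 1 and 23.2 and 23.7 CPM with NRAS siRNA 2, IFIH1 had 14.5 and 16.0 CPM against 19.4 and 20.2 CPM, and TLR3 had 1.86 and 1.91 CPM against 3.04 and 2.78 CPM. The genes are not independent of each other, and none of these differences passed the test.

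The controls of the 2 experiments also differed. The nonspecific siRNA libraries were transfected and collected at 48 h and the DMSO libraries were collected at 24 h, so transfection, siRNA, vehicle and time cannot be told apart. No interferon-response gene passed edgeR's test, against 0.379% of all genes (0.271% higher and 0.108% lower), and 24 of 43 had an unadjusted p under 0.05, against 1713 of all 14761 genes. DESeq2 called 7, all higher with the nonspecific siRNA: HERC6, IFIH1, IFIT2, IFIT3, PARP9, PARP14 and RSAD2.

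In 42 of the 43 genes the log2 fold change, nonspecific siRNA over DMSO, was above 0 (97.7%), against 48.9% of all genes. The exception was EIF2AK2, at -0.05 ± 0.11. The median was 0.47, against -0.01 over all genes. Both nonspecific siRNA libraries were above both DMSO libraries in 30 genes (69.8%, against 19.0% of all genes) and below in 0 (against 18.6%). These 30 came from all 9 role groups.

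IFIT2 had 50.4 and 56.6 CPM with the nonspecific siRNA and 31.7 and 19.4 CPM with DMSO, a log2 fold change of 1.07 ± 0.19 just short of the threshold (edgeR adjusted p = 0.0522). IFIT3 had 43.9 and 51.0 CPM against 29.9 and 18.2 CPM with DMSO, a log2 fold change of 0.99 ± 0.22 (edgeR adjusted p = 0.0963). The groups were apart in both. RSAD2, which makes a chain-terminating nucleotide, had 2.98 and 3.21 CPM against 1.76 and 0.569 CPM with DMSO. IFIH1 had 14.9 and 20.2 CPM against 11.2 and 7.70 CPM, and HERC6 had 13.9 and 15.9 CPM against 10.5 and 8.46 CPM. PARP9 had 29.6 and 27.7 CPM against 20.6 and 18.1 CPM with DMSO. In each of these genes DMSO replicate 2 was the lowest library of the 4.

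The DMSO replicates themselves differed in this gene group. Replicate 1 was above replicate 2 in 32 of the 43 genes, and the median size of the difference was 0.30 on the log2(CPM + 0.5) scale, against 0.16 over all genes. The largest gap was in DDX60, at 1.33. The nonspecific siRNA replicates differed by a median of 0.28, against 0.18 over all genes, with the largest gap in SAMD9 at 1.32 (51.7 and 130 CPM), and replicate 1 was the higher in 21 of 43. DMSO replicate 2, the lower one in most of these genes, thus widened their gap to the nonspecific siRNA. In DDX60, DMSO replicate 1 (18.9 CPM) was above both nonspecific siRNA libraries (15.4 and 18.2 CPM), and DMSO replicate 2 (7.21 CPM) was below them. In 30 genes both DMSO libraries were below both nonspecific siRNA libraries.

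**Figure D3:**
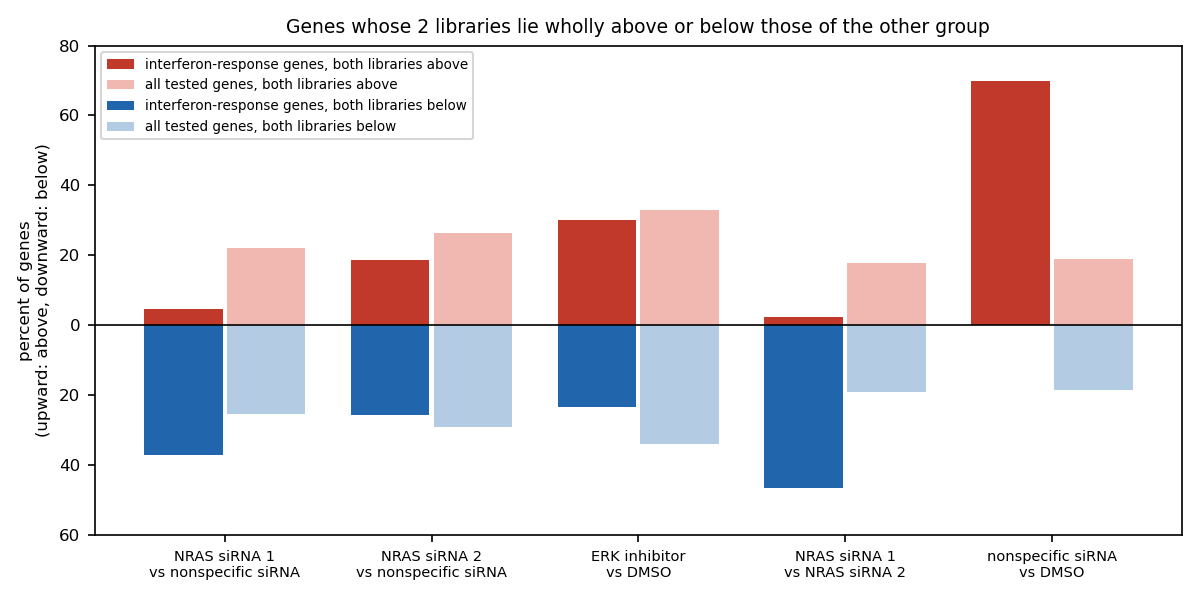
Percent of the 43 tested interferon-response genes (dark bars) and of all 14761 tested genes (pale bars) whose 2 libraries in the first-named group both lay above (upward, red) or below (downward, blue) both libraries of the other group. The nonspecific siRNA was above DMSO in 69.8% of the interferon-response genes, against 19.0% of all genes.

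The responses to NRAS knockdown and to the ERK inhibitor, each against its own control, were compared by their difference, the mean NRAS siRNA response minus the ERK inhibitor response. It passed the test in 4 of the 43 genes (9.30%), against 7.30% of all genes, and was below 0 in each of the 4 (4.57% of all genes) and above 0 in none that passed (2.73% of all genes). For IFI44L, which was higher in both, the difference was -3.01 ± 0.42 (edgeR adjusted p = 0.00367). For TRIM22 it was -4.38 ± 0.74, with 0.106 and 0.144 CPM with NRAS siRNA 1, 0.285 and 0.213 CPM with NRAS siRNA 2 and 0.331 and 0.230 CPM with the nonspecific siRNA. This gene entered the test only through the ERK inhibitor libraries, so its difference is a description. Its place among the 4 supports nothing, and the share of 9.30% counts it. Under a minimum count of 50, where TRIM22 was not tested, the difference passed in IFI44L, IFI6 and ISG15 only. For ISG15, lower with the NRAS siRNAs, the difference was -1.07 ± 0.25 (edgeR adjusted p = 0.0342).

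IFI6 had 21.9 and 17.0 CPM with NRAS siRNA 1, 23.2 and 22.3 CPM with NRAS siRNA 2 and 23.3 and 16.2 CPM with the nonspecific siRNA, overlapping groups, and its difference was -0.96 ± 0.25 (edgeR adjusted p = 0.0451). HERC5 was the highest difference, at 0.58 ± 0.16, and did not pass (edgeR adjusted p = 0.06). The HERC5 difference did pass, above 0, in DESeq2, without a filter on low counts and with the replicate number as a block. Drug and siRNA groups also differ in time and transfection, which cannot be told apart from the treatments. The count was 1 without DMSO replicate 2, where IFI44L remained, and 2 without NRAS siRNA 1 replicate 2, NRAS siRNA 2 replicate 1 or ERK inhibitor replicate 1.

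**Figure D4:**
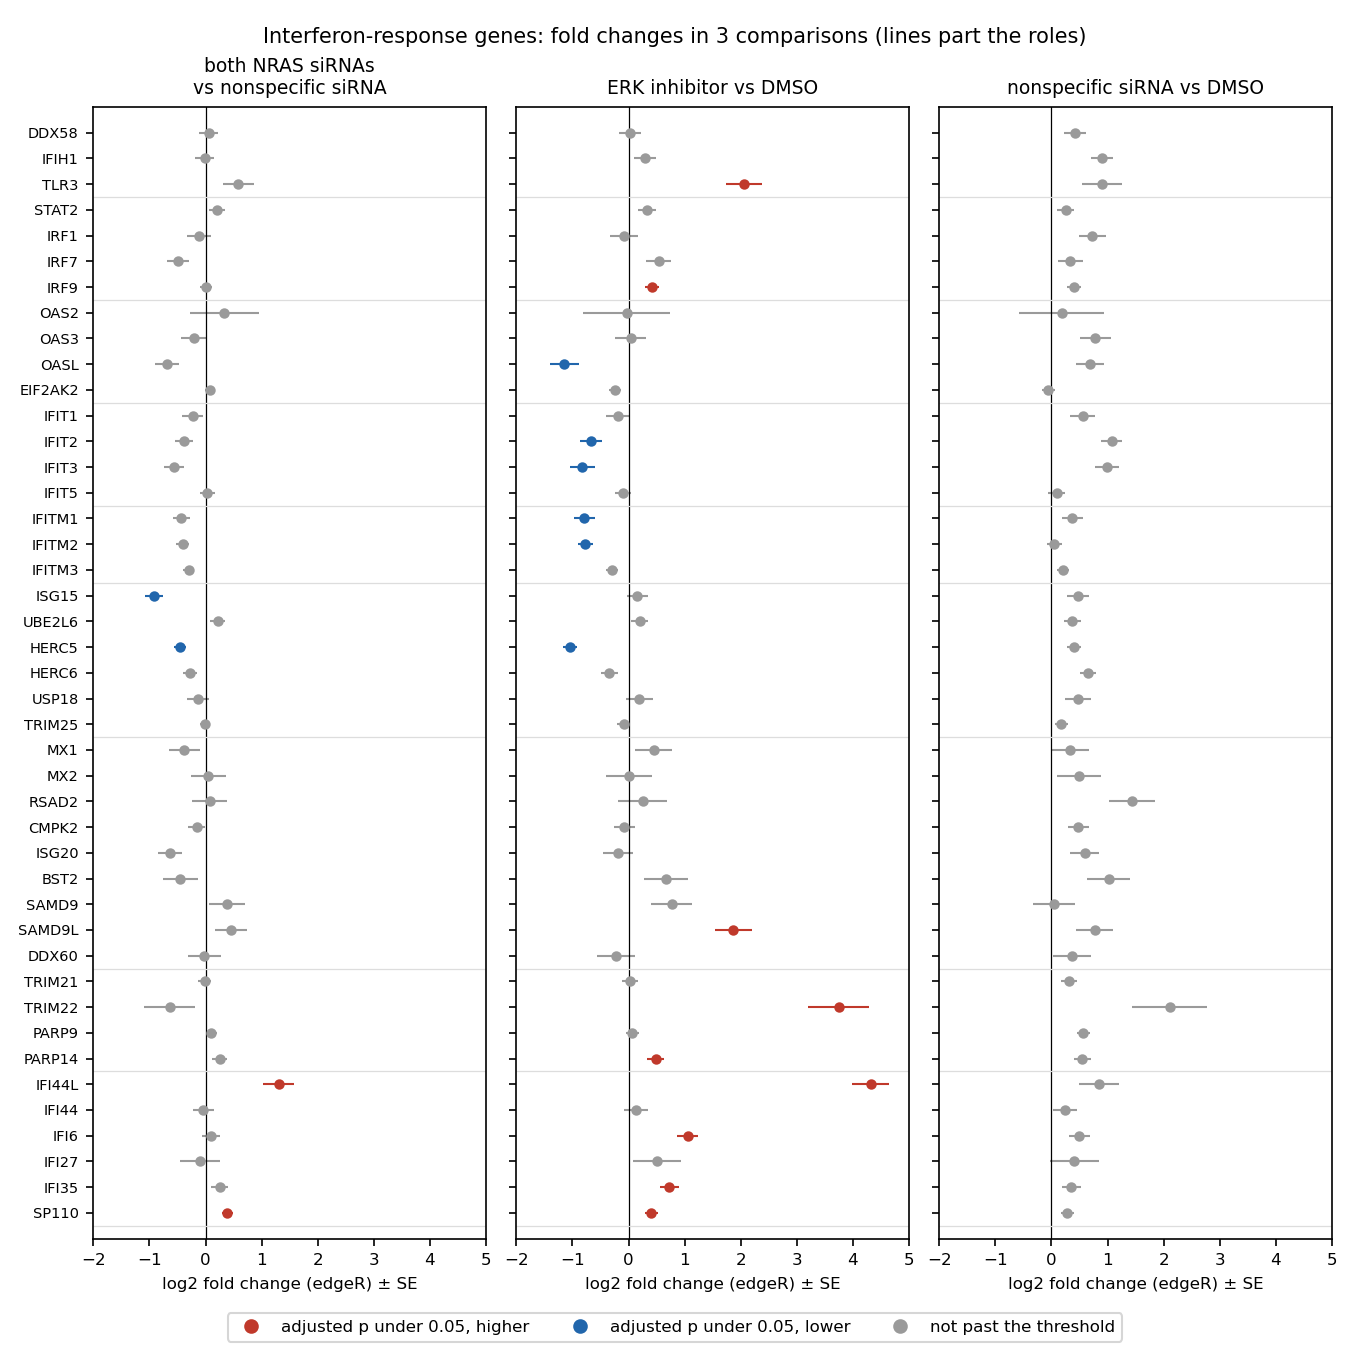
Log2 fold change with its standard error (edgeR) for the 43 tested interferon-response genes, for the mean of both NRAS siRNAs over the nonspecific siRNA, the ERK inhibitor over DMSO and the nonspecific siRNA over DMSO; red and blue points passed an adjusted p under 0.05. The first panel holds 4 coloured points, the second 15 and the third 0, although 42 of its 43 points lie right of 0.

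Genes upstream of the response showed changes in single members. Among the inhibitors of receptor signalling, SOCS1 rose and SOCS3 fell with the ERK inhibitor. They belong to a list of 11 tested genes of receptor signalling. Its share called with the ERK inhibitor was not above the 28.0% of all genes. In the mean of both NRAS siRNAs 1 of the 11 was called (9.09%, against 7.95% of all genes). SOCS1, a feedback inhibitor of the receptor kinases, had 19.7 and 15.2 CPM with the ERK inhibitor and 6.86 and 6.26 CPM with DMSO, a log2 fold change of 1.41 ± 0.17 (edgeR adjusted p = 0.000305). The groups did not overlap. SOCS3, an inhibitor of STAT3 signalling, had 57.8 and 51.1 CPM against 106 and 87.8 CPM with DMSO, a log2 fold change of -0.83 ± 0.16 (edgeR adjusted p = 0.0045). With NRAS siRNA 1 and NRAS siRNA 2 SOCS3 had 84.0 and 86.0 CPM and 80.3 and 97.7 CPM, against 159 and 116 CPM with the nonspecific siRNA, a mean log2 fold change of -0.66 ± 0.14 (edgeR adjusted p = 0.0215).

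Of the 6 receptors, IFNGR2, a chain of the interferon gamma receptor, fell with the ERK inhibitor, with 97.0 and 115 CPM against 172 and 200 CPM with DMSO (log2 fold change -0.81 ± 0.17, edgeR adjusted p = 0.00756). That is 1 of the 6 (16.7%), below the 28.0% of all genes. None of the 6 passed the test with the NRAS siRNAs, against 2.07% of all genes with NRAS siRNA 1, 6.43% with NRAS siRNA 2 and 7.95% in the mean of both. Of 13 tested sensing genes outside the list, IRF3, the factor that switches on interferon beta after sensing, fell with both NRAS siRNAs. It had 41.3 and 36.5 CPM with NRAS siRNA 1, 36.2 and 36.5 CPM with NRAS siRNA 2 and 61.1 and 53.0 CPM with the nonspecific siRNA. The groups were apart, with a mean log2 fold change of -0.60 ± 0.09 (edgeR adjusted p = 0.00699). TICAM1, the adaptor of TLR3, also fell in the mean of both, with a log2 fold change of -0.58 ± 0.15 (edgeR adjusted p = 0.047). In that mean 2 of the 13 were called (15.4%), against 7.95% of all genes. With the ERK inhibitor 2 of the 13 rose and 1 fell (23.1% together, below the 28.0% of all genes). MYD88, a toll-like receptor adaptor, and TLR7, a receptor for single-stranded RNA near the floor, had log2 fold changes of 0.41 ± 0.10 and 2.90 ± 0.91 (edgeR adjusted p = 0.0128 and 0.0377). MB21D1 (cGAS), the DNA sensor, had one of -0.57 ± 0.19 (edgeR adjusted p = 0.0484).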

How the data were processed

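Stranded mRNA libraries were made from total RNA of RD cells, per the labels' protocols. The authors deposited unnormalized read counts for each gene. Tools listed in the submitters' processing notes are HTSeq, SAMtools, TopHat2 and bcl2fastq, and the builds are hg19 and GRCh37, while no source used here gives the annotation or the strand setting. The 10 deposited sample files matched the deposited table, and 5 category lines were left out. They held 38.3 to 39.4% of the total tallied for a library, with 27.0 to 28.9% lacking a unique alignment. The line for unaligned reads was 0 in every library, so these are not shares of all sequenced reads. Replicates differed by more than sampling noise (chi-square 11.1 to 21.1 times its degrees of freedom).

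All 10 libraries entered 1 fit in edgeR 4.0.16 (R 4.3.3; glmQLFit and glmQLFTest, TMM, filterByExpr at a minimum count of 10, 5 residual degrees of freedom) without covariates, adjusted by Benjamini-Hochberg over 14761 genes at 0.05, over 7 comparisons. Standard errors were derived from the same fit. Alternatives were RLE and upper-quartile scaling, DESeq2 1.42.0, other filters, smaller fits, a replicate block and leaving out each library. Single calls were followed under them for the interferon-response genes only, not for markers or genes of the other lists. A gene of the receptor signalling list is not reported here. Members and lists were chosen with earlier results of these data known. Interferon-response genes past the threshold are given with their values in the compared libraries, the others by counts and examples, and genes of the other lists mostly by fold change. Shared 50-base words were counted in GENCODE 29 (GRCh38), and levels of genes with near-identical copies are uncertain.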

Additional observations from a re-analysis of the deposited data

Results flagged for a closer look

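The responses of 4 interferon-response genes to the NRAS siRNAs and to the ERK inhibitor differed by a test of the difference itself (edgeR interaction, mean NRAS siRNA response minus ERK inhibitor response). The difference was -3.01 for IFI44L, which was higher under both treatments than in its control and much more so with the ERK inhibitor. It was -4.38 for TRIM22, which passed the filter on low counts only through the ERK inhibitor libraries and is given as a description; it had 0.723 and 1.02 CPM with the ERK inhibitor and 0.0880 and 0.0379 CPM with DMSO. It was -1.07 for ISG15, whose level was lower with both NRAS siRNAs and did not pass the test with the ERK inhibitor. It was -0.959 for IFI6, which was higher with the ERK inhibitor and did not pass the test with the NRAS siRNAs. Leaving out 1 of the 10 libraries at a time, the call for IFI44L was lost in 0 fits, that for TRIM22 in 2, that for ISG15 in 6 and that for IFI6 in 8.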

How the results depend on the processing

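Over 28 calls of an interferon-response gene in a comparison, 469 values were computed under alternatives; 374 kept direction and call, 95 kept the direction and lost the call, and 0 changed sign. The calls kept in every alternative run were 8, namely 7 with the ERK inhibitor (IFI44L, TRIM22, TLR3, SAMD9L, IFI6, HERC5 and IFITM2) and the interaction of IFI44L. TRIM22 had no value under a minimum count of 50, and it was tested at all only through the ERK inhibitor libraries.

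DESeq2 called 3 genes with NRAS siRNA 1, 7 in the mean of both siRNAs and 7 for the nonspecific siRNA over DMSO. Without a filter on low counts the calls were 3 with NRAS siRNA 1, 8 with NRAS siRNA 2, 8 in the interaction and 7 for the nonspecific siRNA over DMSO. Fitting only the compared groups gave 0 with NRAS siRNA 1, 2 with NRAS siRNA 2 and 2 in the mean of both; for the interaction this is the fit of all groups. Upper-quartile scaling gave 1 for the nonspecific siRNA over DMSO. Among all genes called with the ERK inhibitor, it put the share called higher at 56.2%, against 47.2% under TMM scaling, while the members' split stayed at 9 higher and 6 lower. Scaling by RLE and a minimum count of 50 moved no count by more than 1.5 times.

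Leaving out 1 library at a time gave 0 to 4 calls with NRAS siRNA 1, 0 to 4 with NRAS siRNA 2, 0 to 4 in the mean of both, 7 to 17 with the ERK inhibitor, 0 to 0 between the NRAS siRNAs, 0 to 1 for the nonspecific siRNA over DMSO and 1 to 4 in the interaction. The lone library left in a group was then assumed to vary like the other groups. SP110 with NRAS siRNA 2 and in the mean of both was lost without any one of the 10 libraries.

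With the replicate number as a block there were 6 calls with NRAS siRNA 1, 8 with NRAS siRNA 2, 9 in the mean of both, 17 with the ERK inhibitor, 9 for the nonspecific siRNA over DMSO, 7 in the interaction and 0 between the NRAS siRNAs. The labels do not say that a number pairs libraries, and each group has only 2; deviations of same-numbered libraries correlated at -0.03 to 0.64 over 10 pairs of groups. With 2 libraries per group and 5 residual degrees of freedom, genes under 1 CPM, such as TRIM22, OAS2 and MX2, rest on few counts. Where a setting changed a call, the cause was not tested.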

Other observations

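A second list of 33 interferon-induced genes, of which 32 were found and 27 tested, was read in the same way. It too was chosen with earlier results of these data known. With the ERK inhibitor 6 of the 27 rose and 4 fell, 37.0% together, against 28.0% of all genes. LGALS3BP, a secreted glycoprotein, had 245 and 221 CPM with the ERK inhibitor and 83.1 and 66.4 CPM with DMSO, a log2 fold change of 1.64 ± 0.12 (edgeR adjusted p = 2.03e-05). EPSTI1 and GBP1, a guanylate-binding GTPase, rose by 2.29 ± 0.44 and 2.17 ± 0.46 on the log2 scale (edgeR adjusted p = 0.00402 and 0.00681). EPSTI1 had 0.761 and 1.26 CPM with the ERK inhibitor and 0.264 and 0.152 CPM with DMSO. GBP1 had 1.18 and 1.94 CPM against 0.352 and 0.341 CPM with DMSO, so both fold changes rest on few control counts. TRIM5, a capsid-binding restriction factor, had 60.1 and 64.8 CPM against 37.6 and 37.9 CPM with DMSO. The others that rose were PARP10 and RNF213. Those that fell were PLSCR1, TRIM14, LAP3 and PNPT1, of which PLSCR1, a phospholipid scramblase, had 22.5 and 23.9 CPM against 40.3 and 38.8 CPM with DMSO (log2 fold change -0.77 ± 0.12, edgeR adjusted p = 0.00163).

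ADAR, which edits double-stranded RNA, was the only gene of this list to differ between the NRAS siRNAs in edgeR's test. That is 1 of 27 (3.70%), against 0.427% of all genes. Against the nonspecific siRNA, 1 of the 27 was called with NRAS siRNA 2, as lower (3.70%, against 3.84% of all genes). With NRAS siRNA 1 and in the mean of both the count was 0 (against 2.07% and 7.95% of all genes). ADAR was the gene that differed between the siRNAs. It had 794 and 793 CPM with NRAS siRNA 1 and 557 and 559 CPM with NRAS siRNA 2, a log2 fold change of 0.51 ± 0.08 (edgeR adjusted p = 0.019). The nonspecific siRNA libraries, at 689 and 733 CPM, lay between them.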
